A study of Rattus norvegicus with 46 samples.

Results

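The 9 genes described here encode transcription factors that set or mature the identity of the intestinal epithelium: Cdx1, Cdx2, Hnf4a, Gata4, Gata6, Klf4, Klf5, Klf15 and Creb3l3. They were chosen by gene symbol, and all 9 of the 9 symbols were found, on 18 of the 31042 probe sets of the array and among its 14217 genes with a probe set of their own. Every one of the 18 probe sets passed the filter on dim signal. A probe set is a group of short probes on an Affymetrix rat array, and the brightest probe set of each gene stands for it, with the others given beside it. Levels are log2 normalized intensities, and a difference is a difference of log2 levels, so that a difference of 1 is a doubling.

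RNA came from cryostat sections of duodenum, pooled from the upper part of the villus (top) or from its lower part (bottom), with 1 array per rat and segment and 44 villus arrays from 22 rats. Iron-deficient rats were Wistar rats (+/+), 1 month old at the start, that received a low iron diet and lost 2 to 3 ml of blood at each bleeding, every 3 days over 4 weeks (4 rats). Repleted rats had the same diet and bleeding and then, in their last 3 days, drinking water with ferric ammonium citrate at 50 µM (3 rats). Belgrade rats (b/b), which carry a mutation of the iron transporter gene Slc11a2 in every cell on a Wistar background, received a normal diet without added iron (4 rats), or iron for 3 days (4 rats) or 6 days (3 rats) before they were killed. Control rats were +/+ rats of the same age on a normal diet (4 rats). All rats were fasted overnight. No age is given for the b/b rats, and diet and bleeding came together in the deficient and repleted rats, so their effects cannot be told apart. A further +/+ rat, from a separate experiment, gave 1 array labelled lower crypt and 1 labelled upper crypt.

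Absorptive enterocytes arise from dividing crypt cells and mature as they move up the villus. Cdx1 and Cdx2 are caudal homeobox factors, and Cdx2 is needed for intestinal rather than gastric identity in mice. Hnf4a is a nuclear receptor that switches on genes of lipid handling and digestion, Gata4 sets proximal against distal identity of the mouse small intestine, and Gata6 acts in both crypt and villus. Among the Krüppel-like zinc finger factors, Klf5 is known from dividing crypt cells, Klf4 from cells that have stopped dividing and from goblet cells, and Klf15 from the control of amino acid and fuel metabolism under glucocorticoids in liver and muscle. Creb3l3 is a membrane-bound factor of the endoplasmic reticulum that activates apolipoprotein genes in liver and small intestine.

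Median probe set intensities ran from 597 to 1179 across the 44 villus arrays. The highest was that of the top array of repleted rat 3, where the other top arrays had 597 to 757. Control rats 1 and 2, and b/b rats 1 and 2 without added iron, had nearly identical arrays and were counted as 1 sample each, which left 4 deficient, 3 repleted, 3 b/b, 4 b/b with 3 days of iron, 3 b/b with 6 days of iron and 3 control samples. Markers bore out the segments: 10 of 10 measured absorptive enterocyte markers were higher on the top arrays and 7 of 7 markers of crypt and cycling cells were lower there. By stroma the bottom arrays of repleted rat 3 and control rat 3 stood apart. They had mean levels of 15.35 and 15.50 over 16 stroma markers, against 12.57 to 14.58 on the other bottom arrays. They also had the lowest means over the enterocyte markers, 13.15 and 13.89. Means over 11 exocrine pancreas markers were uneven on the bottom arrays too. They ran from 8.07 to 16.01 in deficient, 8.02 to 8.34 in repleted and 8.06 to 14.56 in control rats. In b/b rats they ran from 7.98 to 12.86 without iron, 7.76 to 13.26 after 3 days and 8.51 to 12.31 after 6 days. The part of pancreas in the results on the bottom arrays was not tested. In such sections, fewer cells of a type and less RNA per cell cannot be told apart.

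The stretches before the transcription start of Creb3l3, Gata6, Klf5 and Cdx1 are shown because these genes stand for both directions of change along the villus: the first pair was higher at the top, the second pair higher at the bottom. Each is the 250 bases before the start in RefSeq's annotation of the rat build GRCr8, read 5′ to 3′ along the gene's strand, with motif matches in capitals.
Creb3l3: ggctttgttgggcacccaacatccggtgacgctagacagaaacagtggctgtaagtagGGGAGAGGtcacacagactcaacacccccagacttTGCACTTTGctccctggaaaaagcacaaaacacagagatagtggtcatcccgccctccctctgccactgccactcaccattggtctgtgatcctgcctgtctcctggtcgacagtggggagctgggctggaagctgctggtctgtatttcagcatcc
Gata6: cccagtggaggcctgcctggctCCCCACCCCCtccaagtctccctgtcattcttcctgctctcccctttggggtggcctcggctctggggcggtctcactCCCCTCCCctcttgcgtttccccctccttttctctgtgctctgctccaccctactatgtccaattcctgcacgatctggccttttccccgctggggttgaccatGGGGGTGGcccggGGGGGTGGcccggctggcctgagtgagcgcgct
Klf5: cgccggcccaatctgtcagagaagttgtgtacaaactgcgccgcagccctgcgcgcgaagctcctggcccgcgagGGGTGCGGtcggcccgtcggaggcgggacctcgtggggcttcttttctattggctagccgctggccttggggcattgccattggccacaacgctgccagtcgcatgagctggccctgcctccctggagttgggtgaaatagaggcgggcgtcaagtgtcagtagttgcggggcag
Cdx1: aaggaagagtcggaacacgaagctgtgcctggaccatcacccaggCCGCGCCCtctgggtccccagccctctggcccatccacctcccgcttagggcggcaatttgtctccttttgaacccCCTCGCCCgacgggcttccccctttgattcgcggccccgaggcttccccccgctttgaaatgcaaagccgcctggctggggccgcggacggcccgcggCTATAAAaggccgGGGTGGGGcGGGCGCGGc
These lie at chr7:9273070-9273319 on the plus strand for Creb3l3, chr18:2460659-2460908 on the plus strand for Gata6, chr15:82471831-82472080 on the plus strand for Klf5 and chr18:56761300-56761549 on the minus strand for Cdx1. The windows of Cdx2, Klf4 and Klf15 overlap the annotated gene and are not printed. Motifs, chosen after the data were seen, were searched on both strands. KLF and Sp factors bind a GC box, searched as CCNCNCCC. For CDX factors the letters were TTTATNG. Hnf4a binds a longer motif, searched as CAAAGTNCA. The GATA letters AGATAA, a motif of the CRE type spelled TGACGTG and the glucocorticoid receptor's preferred half-site of letters AGAACA were searched too. They had no match in the windows shown, where 10.3%, 1.54% and 17.5% of all windows hold 1 or more. Of the windows not shown, Hnf4a held 1 GATA match at -22 to -17 bases from the start, and Klf4 held 1 at -171 to -166. Klf15 held 1 match of the CRE type, at -176 to -170. Creb3l3 held 1 GC box match and 1 HNF4 match, the second of them at -157 to -149 bases from the start, and the HNF4 motif was in 1.06% of all 33469 windows. Gata6 held 5 GC box matches, of which the first 2 overlap each other, Cdx1 held 4 and Klf5 held 1, and 42.8% of all windows held at least 1. Cdx1 also held 1 CDX match, at -31 to -25 bases from its start, a motif found in 10.1% of windows. A match is a run of letters and says nothing of binding.

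Along the villus, 7 of the 9 genes differed between top and bottom by their brightest probe set. Klf4, Creb3l3 and Gata6 were higher at the top, while Klf5, Cdx2, Cdx1 and Gata4 were higher at the bottom, and the brightest probe sets of Hnf4a and Klf15 did not pass. Over all 18 probe sets, 14 passed the test of top minus bottom within each rat, averaged over the 6 groups (limma, Benjamini-Hochberg adjusted p under 0.05 over all 26517 probe sets tested). Of all probe sets tested 54.2% passed, 25.5% higher and 28.8% lower at the top, so a call as such does not set these genes apart. The 14 calls were 6 higher and 8 lower.

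Klf4 had the clearest gradient of the 9 genes. Its level was 15.31 at the lowest, 16.43 at the median and 16.73 at the highest on the top arrays of the 20 counted samples, against 13.30, 13.74 and 14.37 on the bottom arrays. The lowest top array lay above the highest bottom array, and the level was higher at the top in 20 of 20 rats, by 1.98 to 3.02. The fitted difference was 2.44 ± 0.06 (SE, adjusted p = 1.94e-13), a 5.44-fold difference.

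Creb3l3 ranged from 14.42 over a median of 15.91 to 16.48 on the top arrays, and from 11.64 over 14.96 to 15.74 on the bottom arrays. The segments overlapped, yet Creb3l3 was higher at the top in 18 of 20 rats, with deficient rat 3 and b/b rat 2 of the 3-day group as the 2 exceptions. The difference was 1.19 ± 0.22 (SE, adjusted p = 1.82e-04). The lowest bottom level, 11.64, and the widest gap, 4.63, belonged to repleted rat 3, whose bottom array was rich in stroma markers, and without that rat the difference was 0.98.

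Gata6 ranged from 11.79 over 12.41 to 12.96 at the top, and from 11.16 over 11.67 to 12.42 at the bottom. It was higher at the top in 20 of 20 rats, by 0.66 ± 0.09 (SE, adjusted p = 5.24e-06). A second, dimmer Gata6 probe set, 1375613_at, did not differ by the test (0.00 ± 0.21, SE, adjusted p = 0.992).

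Klf5 ran the other way on all 4 of its probe sets. The brightest, 1394039_at, ranged from 13.75 over 14.94 to 15.38 at the top, and from 14.68 over 15.65 to 15.95 at the bottom, and it was lower at the top in 19 of 20 rats. Its difference was -0.74 ± 0.10 (SE, adjusted p = 7.14e-06). Probe set 1368363_at was lower at the top in 20 of 20 rats (-0.92 ± 0.09, SE, adjusted p = 7.09e-08). The other 2, 1398159_at and 1385961_at, had differences of -0.70 and -0.40 (adjusted p = 6.55e-03 and 0.0132). The last did not pass with median centring (-0.17, adjusted p = 0.260) or on the values as deposited (-0.28, adjusted p = 0.0723).

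Both caudal homeobox genes were lower at the top. Cdx2 ranged from 12.93 over 13.35 to 13.93 at the top, and from 13.79 over 14.10 to 14.53 at the bottom. It was lower at the top in 19 of 20 rats, by -0.80 ± 0.09 (SE, adjusted p = 7.37e-07), and repleted rat 3 was the exception with a difference of 0.04. Cdx1 ranged from 7.02 over 10.80 to 11.22 at the top, and from 10.59 over 11.39 to 11.69 at the bottom. It was lower at the top in 18 of 20 rats, by -0.69 ± 0.19 (SE, adjusted p = 5.53e-03). The level of 7.02 came from the top array of repleted rat 3, where every other top array had 10.14 or more, and the difference was -0.49 without that rat (adjusted p = 3.70e-04).

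Gata4 and Hnf4a had probe sets that disagreed. The brightest Gata4 probe set, 1387894_at, ranged from 12.50 over 13.11 to 13.93 at the top, and from 13.21 over 13.75 to 14.28 at the bottom. It was lower at the top in 19 of 20 rats (-0.67 ± 0.09, SE, adjusted p = 1.22e-05), all but control rat 3. The dimmer 1370293_at was higher at the top (0.58 ± 0.20, SE, adjusted p = 0.0183), but it did not pass with median centring (adjusted p = 0.0528) or as deposited (adjusted p = 0.144). Over the 40 counted arrays the pair had a Pearson r of -0.17.

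For Hnf4a, the brightest probe set, 1392969_at, spanned 15.04 to 15.91 at the top and 15.24 to 15.82 at the bottom, and its difference did not pass (-0.12 ± 0.07, SE, adjusted p = 0.207). With median centring it was higher at the top instead (0.28, adjusted p = 0.0136), so no direction can be given for it. The dimmer 1369289_at and 1382496_at were higher at the top in 19 and 18 of 20 rats, by 0.84 ± 0.13 (SE, adjusted p = 4.61e-05) and 0.94 ± 0.17 (SE, adjusted p = 1.28e-04). Neither followed the brightest one across arrays, with r of -0.06 and -0.10. Which of these probe sets reports which transcript was not tested.

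Klf15 had no uniform gradient. Its brightest probe set, 1368249_at, ranged from 8.90 over 10.83 to 13.16 at the top, and from 10.19 over 11.13 to 12.27 at the bottom, without a difference that passed (-0.22 ± 0.12, SE, adjusted p = 0.134). With median centring (-0.34) and on the values as deposited (-0.46) it passed, lower at the top. The second probe set, 1381396_s_at, was lower at the top on average (-0.50 ± 0.18, SE, adjusted p = 0.0265), yet in only 13 of 20 rats. Leaving out control rat 4 (-0.47), repleted rat 1 (-0.42) or b/b rat 2 of the 6-day group (-0.43) ended that call, with adjusted p of 0.0516, 0.0595 and 0.0601. The dimmest, 1381395_at, was above the 40th percentile of its array on only 4 of 44 arrays and did not pass (0.47 ± 0.36, SE, adjusted p = 0.289).

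**Figure D1:**
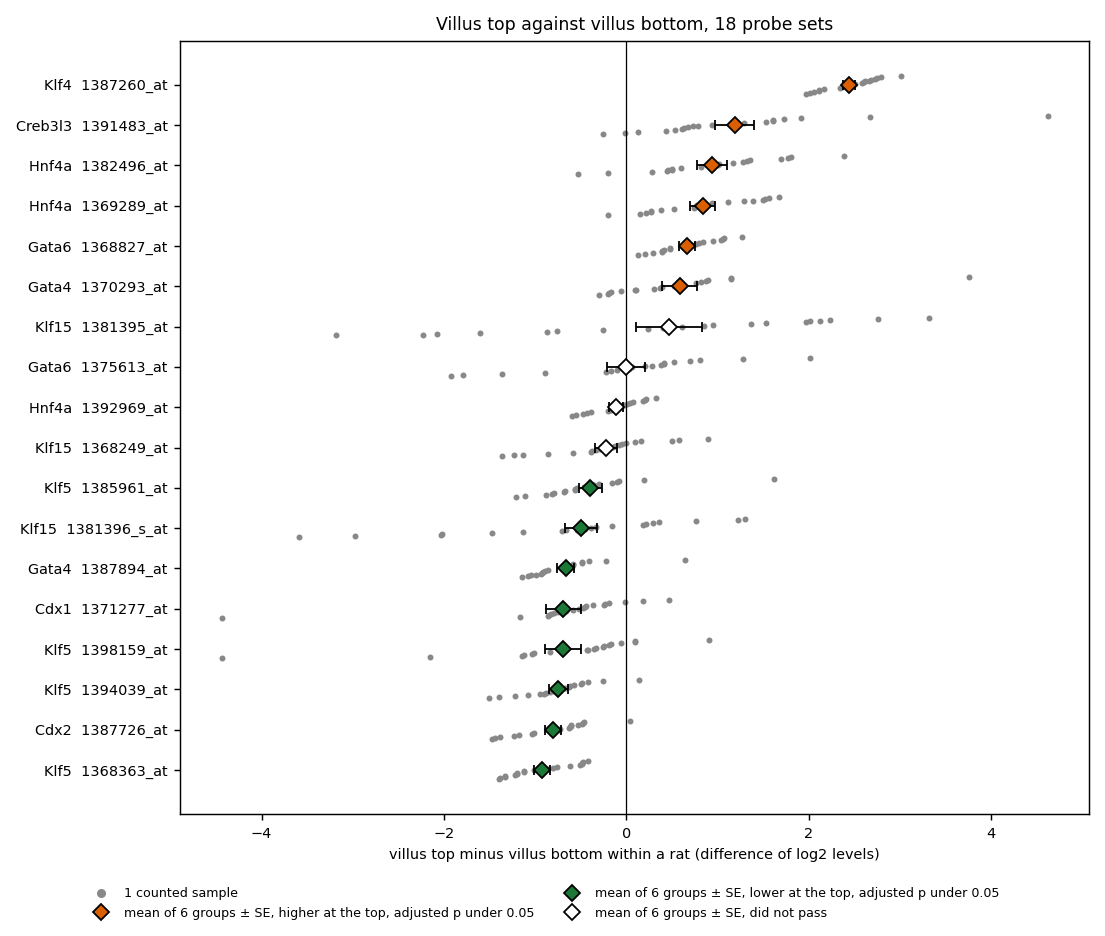
Villus top minus villus bottom within each rat, as a difference of log2 levels on the horizontal axis, for the 18 probe sets ordered by their mean. Grey dots are the 20 counted samples and diamonds are the means over the 6 groups with their SE, orange or green where the adjusted p was under 0.05. Klf4 stands alone at the top, with every rat between 1.98 and 3.02, and the means of the 4 Klf5 probe sets all lie below 0.

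The difference between top and bottom in Klf4 was 2.06 to 2.80 in deficient, 2.41 to 2.73 in repleted, 2.11 to 2.60 in b/b, 2.50 to 2.66 in b/b with 3 days of iron, 2.69 to 3.02 in b/b with 6 days of iron and 1.98 to 2.11 in control rats. It was positive in every rat. The control samples lay below all of the repleted rats and of the b/b rats given iron, but overlapped the deficient rats. Creb3l3 had differences of -0.26 to 1.91 in deficient, 0.79 to 4.63 in repleted, 0.13 to 0.73 in b/b, -0.01 to 1.73 and 0.53 to 0.68 in b/b with 3 and 6 days of iron, and 1.53 to 2.68 in control rats. All 3 control samples lay above all 6 b/b samples that had received no iron or 6 days of it. They overlapped the b/b rats with 3 days of iron, the deficient and the repleted rats. How many of all probe sets separate groups in these ways was not counted. In a test of whether the gradient differed among the 6 groups, 0 of the 18 probe sets passed, as did 0.00754% of all probe sets (limma's moderated F test), and 1 of the 18 had an unadjusted p under 0.05. That one was the second Klf15 probe set (adjusted p = 0.467).

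Other regulators of the epithelium split in both directions too. Of 29 measured genes from a list of 35, 11 were higher and 11 lower at the top, with a median difference of -0.10 against 0.02 over all probe sets. The largest rises were those of Pparg, a nuclear receptor of lipid metabolism (3.45), Prdm1 (2.37) and Maf (1.54). The largest falls were those of Ascl2, a factor of intestinal stem cells (-2.85), Myc (-2.49) and Nr5a2, a nuclear receptor active in crypts (-2.45). Among 10 other measured Krüppel-like factors, Klf6 (1.95), Klf10 (0.95) and Klf3 (0.69) were higher at the top, while Klf7 (-0.54) and Klf2 (-0.53) were lower.

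Lists of known targets were at hand for Cdx factors, Hnf4a, Gata4, Creb3l3 and Klf15. The first 3 lists were mostly higher at the top, where 25.5% of all probe sets were called higher, and the other 2 were divided. Of 9 measured targets of Cdx factors 8 were higher and 0 lower, with a median difference of 1.73, led by Mep1a, a brush border protease (3.62), Car1 (2.86) and Heph (2.52). Cdx1 and Cdx2 themselves were lower there. Of 10 measured Hnf4a targets 9 were higher and 0 lower (median 2.30), led by the apolipoprotein genes Apoa4 (4.66), Apoc3 (2.99) and Apob (2.78). Of 5 Gata4 targets 4 were higher and 0 lower (median 1.21), led by Fabp2 (2.18), Slc51a (1.26) and Slc10a2 (1.21). The lists do not separate genes that a factor activates from genes that it represses. The 9 measured Creb3l3 targets divided into 3 higher, namely Apoa4, Apoc2 (4.31) and Cidec (2.44), and 3 lower, namely the fatty acid desaturases Fads1 (-1.66) and Fads2 (-1.35) and the elongase Elovl5 (-1.12). The 7 Klf15 targets, genes of amino acid and fuel breakdown, also divided, into 3 higher, led by Cpt1b (1.39), and 4 lower, led by Prodh (-1.36), with a median of -0.86. Of 8 measured glucocorticoid-induced genes 3 were higher, led by the kinase gene Sgk1 (3.29), and 2 lower, led by Mt2A (-1.20). Several genes stand on more than 1 list. Some are also among the enterocyte markers that served to check the segments: Vil1, Cdh17 and Alpi of the Cdx list, Apoa4, Apob, Fabp1 and Fabp2 of the Hnf4a list. Fabp1 and Fabp2 are on the Gata4 list as well, and Apoa4 is on the Creb3l3 list. The rise of these genes at the top is therefore no separate result about the factors.

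**Figure D2:**
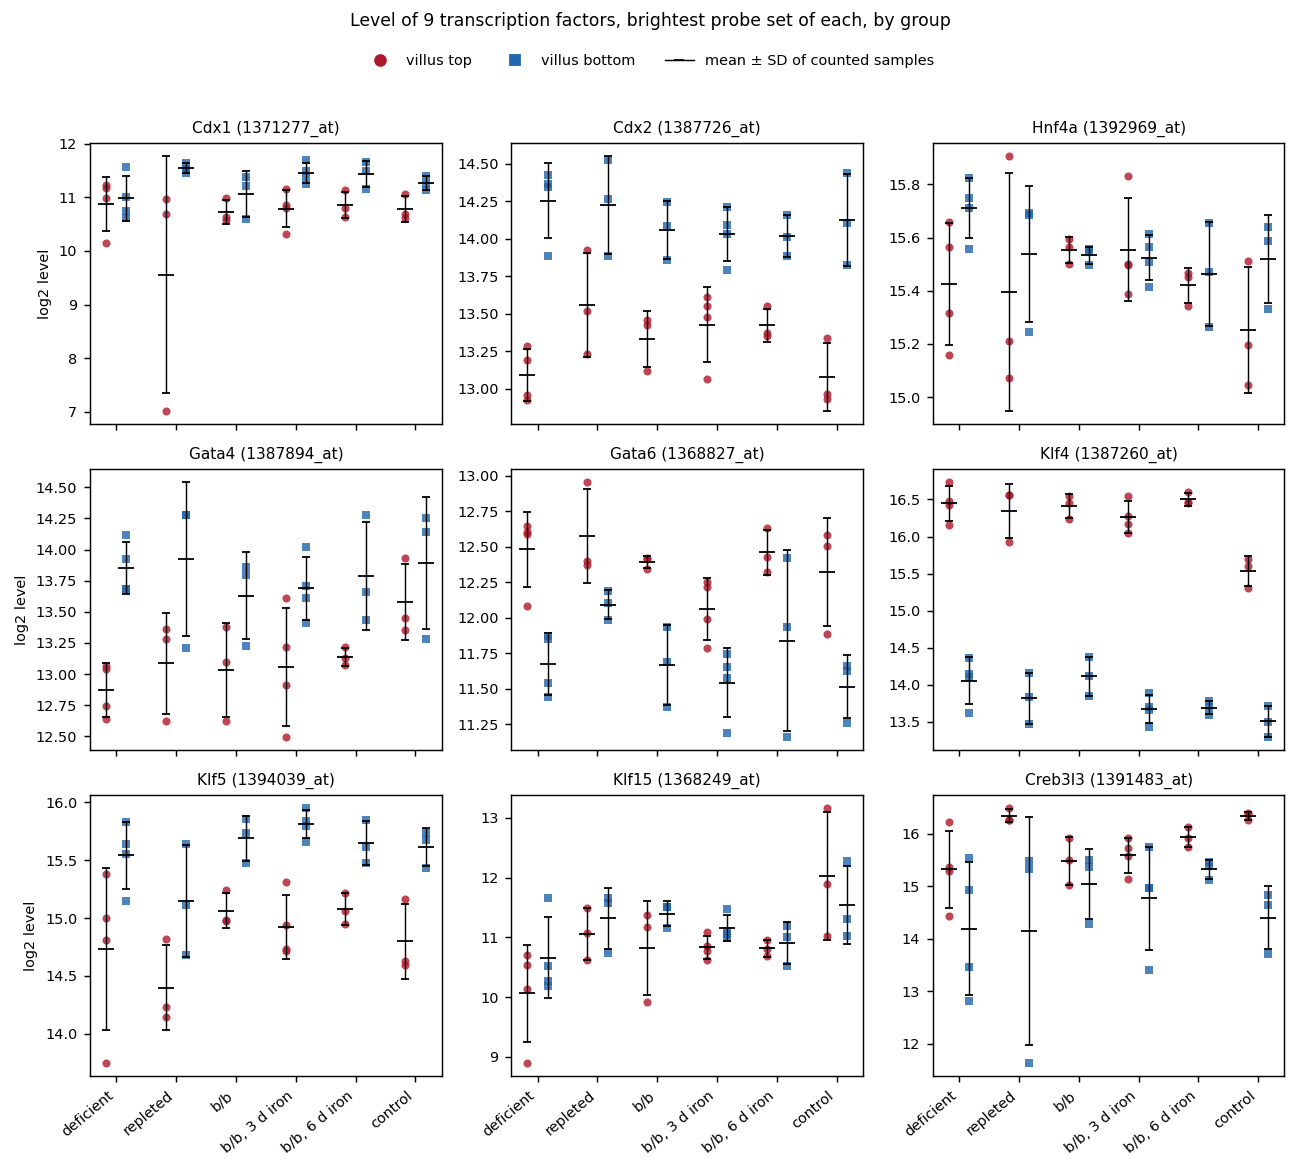
Log2 level of the brightest probe set of each of the 9 genes on the vertical axis, by group on the horizontal axis, with red circles for villus top, blue squares for villus bottom, and black bars for the mean ± SD of the counted samples. Klf4 separates the segments in all groups and its control top arrays (15.31 to 15.69) lie below every other top array, whereas 1 repleted top array carries the low Cdx1 level of 7.02.

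Iron-deficient and control rats were compared to ask what a lack of iron changes. On the mean of top and bottom, 2 of the 18 probe sets passed, beside 0.404% of all probe sets: Klf4 was higher and the second Klf15 probe set was lower in deficient rats. On the top arrays alone 3 passed, Klf4 and 2 of the 3 Klf15 probe sets, beside 0.977% of all. On the bottom arrays alone 0 passed, as did 0 of all 26517 probe sets (limma, with 3 of the 18 and 3449 overall at an unadjusted p under 0.05).

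Klf15 fell in the villus top of deficient rats. Its second probe set, 1381396_s_at, had levels of 6.64, 6.43, 7.72 and 6.91 on the deficient top arrays, against 11.40, 9.69 and 9.91 on the control top arrays. The groups did not overlap, and the deposited intensities were 42.6 to 153 on the deficient and 784 to 2607 on the control top arrays. The difference was -3.41 ± 0.55 (SE, adjusted p = 6.30e-03). The deficient intensities lie close to the pseudocount of 43.5 added before taking logs, and the difference was -2.49 with a pseudocount 4 times larger and -3.86 with one 4 times smaller.

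On the bottom arrays the same probe set had 8.67, 9.40, 9.19 and 10.51 in deficient rats, against 10.10, 9.33 and 9.63 in control rats. These overlapped, and the difference was -0.24 ± 0.51 (SE, adjusted p = 0.887). Top minus bottom was thus negative in 4 of 4 deficient rats (-3.59 to -1.48) and positive in 3 of 3 control samples (0.29 to 1.30). The test of that difference between groups gave -3.17 ± 0.60 (SE, adjusted p = 0.225), which did not pass, as 0 of all probe sets did in it (limma, 2396 at an unadjusted p under 0.05).

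The brightest Klf15 probe set, 1368249_at, had 10.70, 10.14, 8.90 and 10.53 on the deficient top arrays, against 13.16, 11.02 and 11.89 on the control top arrays. These did not overlap either, with a difference of -1.96 ± 0.45 (SE, adjusted p = 0.0360). On the mean of both segments its difference of -1.42 ± 0.35 (SE) did not pass (adjusted p = 0.0659), whereas that of 1381396_s_at did (-1.83 ± 0.40, SE, adjusted p = 0.0480). The dimmest probe set showed no such difference (-0.11 ± 0.84 at the top, SE, adjusted p = 0.982).

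The Klf15 result leans on the merged control sample of rats 1 and 2. Without it the top difference was -2.88 (adjusted p = 0.0848) for 1381396_s_at and -1.39 (adjusted p = 0.292) for 1368249_at. The probe set 1368249_at also lost its call without control rat 4 (-2.02, adjusted p = 0.0777), deficient rat 2 (-1.98, adjusted p = 0.102) or deficient rat 3 (-1.57, adjusted p = 0.0953), without the intensity trend (adjusted p = 0.132) and with Xist as a covariate (-2.09, adjusted p = 0.0579).

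Klf4 was higher in deficient rats. It had 16.48, 16.73, 16.15 and 16.42 on the deficient top arrays, against 15.61, 15.31 and 15.69 on the control top arrays, without overlap. The difference was 0.91 ± 0.18 (SE, adjusted p = 0.0155). On the bottom arrays the levels were 14.14, 14.36, 14.10 and 13.62 in deficient rats, against 13.50, 13.30 and 13.72 in control rats, which overlapped (0.55 ± 0.19, SE, adjusted p = 0.232). On the mean of both the difference was 0.73 ± 0.16 (SE, adjusted p = 0.0481). Without the merged control sample (0.95), control rat 3 (0.80) or deficient rat 2 (0.82) the top difference did not pass (adjusted p = 0.0906, 0.0963 and 0.0745), nor did it with median centring (0.82, adjusted p = 0.234), without the intensity trend (adjusted p = 0.127), as deposited (0.77, adjusted p = 0.0671) or with Xist as a covariate (0.83, adjusted p = 0.0508).

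Both calls on the mean of the segments were close to the threshold. When 1 of the 20 samples was left out at a time, Klf4 did not pass in 13 fits (0.62 to 0.82 over all 20, adjusted p up to 0.234) and Klf15 1381396_s_at in 12 (-2.08 to -1.46 over all 20, adjusted p up to 0.211). Those 13 and 12 include each control sample and deficient rats 1, 2 and 3 for both genes, and the rest left out rats of the other groups, which share the estimate of spread. Values with the Xist level as a covariate stood in the same direction, 0.69 (adjusted p = 0.108) for Klf4 and -1.96 (adjusted p = 0.0846) for Klf15. Xist was high in 0 of 4 deficient and 1 of 3 control samples.

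Other genes did not pass in this comparison. Creb3l3 had 15.37, 14.42, 15.28 and 16.22 on the deficient top arrays, against 16.36, 16.39 and 16.25 on the control top arrays, all of the deficient ones lower, but the difference of -1.01 ± 0.28 (SE) missed the threshold (adjusted p = 0.0850). It was -1.31 (adjusted p = 0.0117) without deficient rat 4. Brightest Gata4 had 13.07, 12.64, 12.74 and 13.04 on the deficient top arrays, against 13.45, 13.93 and 13.36 on the control top arrays, a difference of -0.71 ± 0.25 (SE, adjusted p = 0.193). Differences of Cdx1, Cdx2, Gata6 and the brightest Klf5 and Hnf4a probe sets at the top lay between -0.06 and 0.17, each with an SE of 0.19 to 0.59.

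Of the 8 lists of related genes, called members on the deficient top arrays were Vil1, a brush border protein and Cdx target (-0.71 ± 0.16, SE, adjusted p = 0.0294), and Gpt, an alanine aminotransferase and Klf15 target (-0.80 ± 0.18, SE, adjusted p = 0.0294). The 7 Klf15 targets had differences of -1.35 to -0.33 there, of which 1 passed, with a median of -0.80 against -0.01 over all probe sets. The 8 measured glucocorticoid-induced genes had a median of -0.11, and 0 of them passed. On the mean of both segments 0 list members passed in any of the 6 group comparisons.

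Several marker lists moved with these results on the top arrays. The mean level over 10 of 11 enterocyte markers was 16.69 to 17.00 in deficient and 17.05 to 17.27 in control rats, and that over 10 of 12 lymphocyte and plasma cell markers was 10.07 to 10.22 in deficient and 10.78 to 11.56 in control rats. The 2 of 6 measured red blood cell markers had 12.85 to 14.67 in deficient and 11.01 to 11.80 in control rats. The 11 of 12 exocrine pancreas markers had 7.53 to 8.72 in deficient and 8.31 to 11.29 in control rats, and control rats 1 and 2, which carry the highest Klf15 levels, had the highest of these. The mean over 6 goblet cell markers was 14.80 to 15.64 in deficient and 14.68 to 15.16 in control rats, which overlapped. The part of these lists in the results for Klf15 and Klf4 was not tested.

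**Figure D3:**
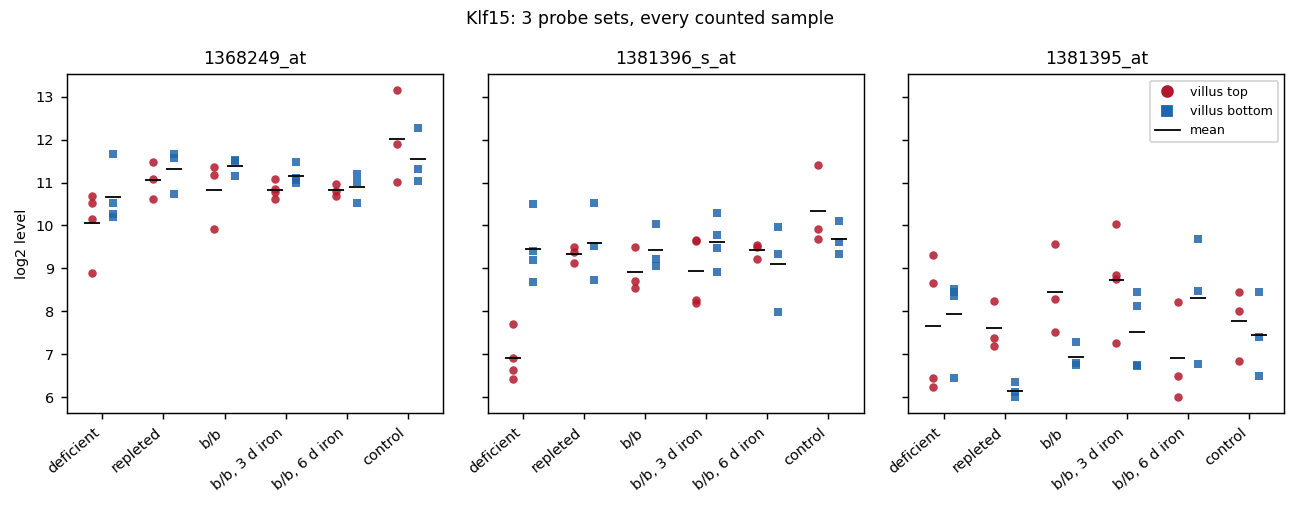
Log2 level of the 3 Klf15 probe sets on the vertical axis for every counted sample, by group on the horizontal axis, with red circles for villus top, blue squares for villus bottom and black lines for group means. On 1381396_s_at the 4 deficient top arrays lie at 6.43 to 7.72 while the deficient bottom arrays lie at 8.67 to 10.51, and the dim 1381395_at scatters without such a pattern.

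Repleted rats were set against deficient rats to ask what 3 days of iron do. Among the 18 probe sets 0 passed, as did 0% of all probe sets (limma, with 4 of the 18 and 3382 overall at an unadjusted p under 0.05). Without deficient rat 4, 507 of all passed, 2 of the 18 among them, both Klf5 probe sets lower in repleted rats: 1398159_at (-1.56, adjusted p = 0.0201) and 1394039_at (-0.60, adjusted p = 0.0348). Without repleted rat 1, 88 passed, Klf5 1398159_at among them (-1.70, adjusted p = 0.0406). Klf15 1381396_s_at had 9.39, 9.49 and 9.14 on the repleted top arrays, against the deficient 6.43 to 7.72, so these groups did not overlap. The difference of 2.42 ± 0.55 (SE) did not pass (adjusted p = 0.229), nor did that of 1.28 ± 0.40 (SE) on the mean of segments (adjusted p = 0.223). Creb3l3 had 16.48, 16.26 and 16.27 on the repleted top arrays, all above the deficient 14.42 to 16.22, a difference of 1.01 ± 0.28 (SE, adjusted p = 0.241). Klf4 stayed close, with 16.56, 16.56 and 15.92 on the repleted top arrays against 16.15 to 16.73 on the deficient ones (-0.10 ± 0.18, SE, adjusted p = 0.852).

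Repleted and control rats differed on the mean of segments at 0.0679% of all probe sets and at 0 of the 18 (limma, 5 of the 18 at an unadjusted p under 0.05). On the top arrays 1 of the 18 passed, beside 0.207% of all: the dimmest Klf5 probe set, 1398159_at, was lower in repleted rats. It had 10.05, 6.77 and 8.73 on the repleted top arrays, against 11.27, 11.92 and 10.90 on the control top arrays (-2.84 ± 0.58, SE, adjusted p = 0.0470). The other 3 Klf5 probe sets did not follow, with top differences of -0.40, -0.29 and 0.25. The call was lost in 13 of 20 fits with 1 sample left out (-3.61 to -1.97 over all 20), among them those without each control sample or repleted rat 2 (-1.97, adjusted p = 0.0688). It was lost as well without the intensity trend (adjusted p = 0.117) and on the values as deposited (-2.61, adjusted p = 0.0596).

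Hnf4a 1369289_at was the nearest of the others in that comparison. On the mean of the segments its difference was 1.22 ± 0.27 (SE, adjusted p = 0.0645), with top levels of 12.26, 13.15 and 12.46 in repleted rats against 11.55, 11.71 and 11.80 in control rats. Creb3l3 did not differ at the top (0.00 ± 0.30, SE, adjusted p = 0.999). Klf4 was higher on the repleted top arrays by 0.81 ± 0.19 (SE, adjusted p = 0.0622), which did not pass. Without repleted rat 3 both passed, Hnf4a 1369289_at by 1.42 (adjusted p = 0.0197) and Klf4 at the top by 1.02 (adjusted p = 0.0172). Comparisons with control share the same 3 control samples.

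**Figure D4:**
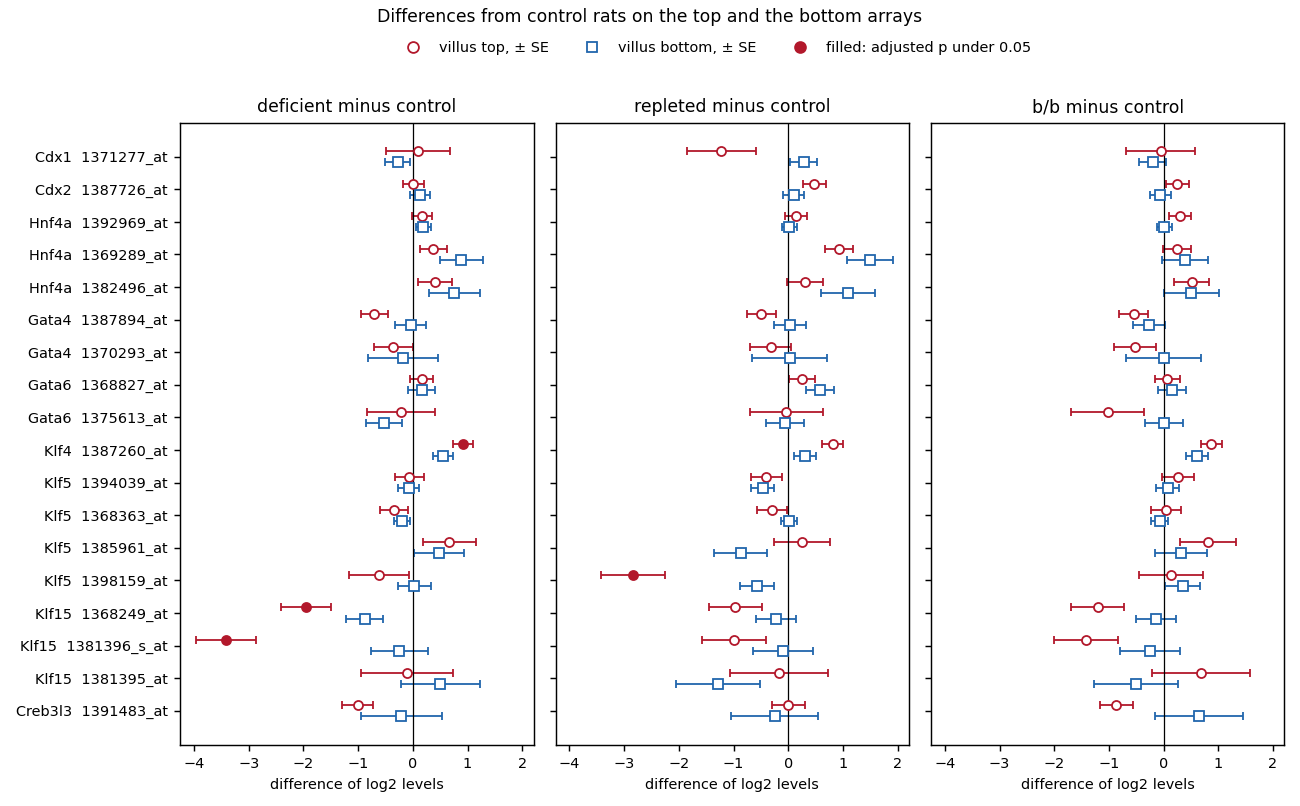
Differences of log2 level from control rats on the horizontal axis, for deficient, repleted and b/b rats in the 3 panels and the 18 probe sets down the page, with red circles for villus top, blue squares for villus bottom and bars for the SE. Filled symbols passed at an adjusted p under 0.05: Klf4 and 2 Klf15 probe sets in deficient rats and Klf5 1398159_at in repleted rats, all at the top.

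In Belgrade rats the Slc11a2 mutation impairs iron uptake on any diet. Set against control rats, 0 of the 18 probe sets passed on the mean of segments, beside 0.0113% of all (limma, 1 of the 18 at an unadjusted p under 0.05), and 0 passed on the top arrays, beside 0.0905% of all (4 of the 18 at an unadjusted p under 0.05). Klf4 was the nearest in both. It had 16.45, 16.23 and 16.54 on the b/b top arrays, against 15.61, 15.31 and 15.69 on the control top arrays, without overlap (0.87 ± 0.19, SE, adjusted p = 0.0695). Without repleted rat 3, which enters through the shared spread, the difference was 0.87 with an adjusted p of 0.0224. Over 6 goblet cell markers, the mean level on the top arrays was 15.31 to 16.28 in b/b and 14.68 to 15.16 in control rats. In repleted rats it was 13.94 to 14.60, and its part in the Klf4 level was not tested. Klf15 1381396_s_at had 9.49, 8.71 and 8.55 on the b/b top arrays, all below the control 9.69 to 11.40 (-1.41 ± 0.59, SE, adjusted p = 0.633). Creb3l3 was at 15.92, 15.49 and 15.01 on the b/b top arrays, all below the control 16.25 to 16.39 (-0.86 ± 0.30, SE, adjusted p = 0.450).

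Feeding iron to b/b rats for 3 or 6 days gave 0 calls among the 18 probe sets and 0% of all in each comparison with unfed b/b rats (limma, 731 and 1120 of all probe sets at an unadjusted p under 0.05, 0 and 0 of the 18). Xist was high in 3 of 3 samples with 6 days of iron and 1 of 3 without iron, so these groups were not balanced for it. With the Xist level as a covariate, 0 of the 18 passed in either comparison. Creb3l3 at the top had 15.92, 15.49 and 15.01 without iron, 15.91, 15.73, 15.57 and 15.14 after 3 days and 15.92, 16.13 and 15.74 after 6 days. Klf4 at the top had 16.45, 16.23 and 16.54 without iron, 16.05, 16.16, 16.28 and 16.55 after 3 days and 16.45, 16.61 and 16.46 after 6 days. On the mean of the segments the differences in Klf4 were -0.30 ± 0.16 (SE, adjusted p = 1.00) and -0.16 ± 0.17 (SE, adjusted p = 0.999).

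Across the 6 groups together, 0 of the 18 probe sets passed the F test on the mean of segments, beside 0.0189% of all, and 6 of the 18 had an unadjusted p under 0.05. Nearest were Klf5 1398159_at (adjusted p = 0.0596), Klf4 and Hnf4a 1369289_at (adjusted p = 0.177 each). At the top, Klf4 averaged 16.51 ± 0.09 in b/b with 6 days of iron, 16.45 ± 0.24 in deficient, 16.41 ± 0.16 in b/b, 16.35 ± 0.37 in repleted, 16.26 ± 0.21 in b/b with 3 days of iron and 15.54 ± 0.20 in control rats (SD). Neighbours in that order overlapped except the last pair: every one of the 17 other top samples, at 15.92 or more, lay above the 3 control samples. Klf15 1381396_s_at at the top averaged 6.92 ± 0.56 in deficient, 8.92 ± 0.50 in b/b, 8.94 ± 0.82 in b/b with 3 days of iron, 9.34 ± 0.18 in repleted, 9.43 ± 0.18 in b/b with 6 days of iron and 10.33 ± 0.93 in control rats (SD). In order of level, only deficient and control rats did not overlap their neighbours. How many of all probe sets separate groups in these ways was not counted, and each comparison with control uses the same 3 control samples.

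The 2 arrays labelled crypt came from 1 +/+ rat, without replicates and without a test. By the means of 2 marker lists they did not sit below the villus. Over 10 enterocyte markers the means were 15.57 on the array labelled lower crypt and 16.83 on that labelled upper crypt. They were 13.89 to 15.56 on the control villus bottom and 17.05 to 17.27 on the control villus top. Over 7 markers of crypt and cycling cells they were 12.70, 10.90, 12.89 to 13.18 and 10.04 to 10.68 in the same order. By these means the array labelled lower crypt was closer to villus bottom, and that labelled upper crypt closer to villus top. Single markers did not all follow, since Pcna was higher on the array labelled upper crypt than on that labelled lower crypt.

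Given in the order lower crypt, upper crypt, villus bottom and villus top of control rats, Klf4 had 14.17, 15.16, 13.30 to 13.72 and 15.31 to 15.69. Creb3l3 had 13.47, 14.34, 13.71 to 14.83 and 16.25 to 16.39. Gata6 had 11.04, 12.20, 11.26 to 11.66 and 11.88 to 12.58. These 3 genes, higher at the villus top, were also higher on the array labelled upper crypt than on that labelled lower crypt, by 0.99, 0.87 and 1.15. The dimmer Gata6 1375613_at ran the other way, with 9.44 on the lower and 7.86 on the upper crypt array, a difference of -1.58.

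Klf5, in the same order, had 15.79, 15.12, 15.43 to 15.74 and 14.60 to 15.17, Cdx2 had 14.08, 13.72, 13.83 to 14.44 and 12.93 to 13.34, and Cdx1 had 11.17, 10.10, 11.14 to 11.40 and 10.60 to 11.06. All 3 were lower on the array labelled upper crypt, by 0.66, 0.36 and 1.08. Hnf4a (15.64, 15.58, 15.33 to 15.64 and 15.04 to 15.51) and Gata4 (13.67, 13.45, 13.28 to 14.25 and 13.36 to 13.93) differed by -0.06 and -0.22 between upper and lower crypt. Their dimmer probe sets differed by more in part, Hnf4a 1369289_at by 0.72, Hnf4a 1382496_at by -0.06 and Gata4 1370293_at by 0.79. Klf15 had 9.96, 10.75, 11.03 to 12.27 and 11.02 to 13.16, so that both crypt arrays lay below every control villus sample, as they did on 1381396_s_at (9.25 and 8.85). Over all probe sets, upper minus lower exceeded 1 in 12.2% and lay below -1 in 14% of them.

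**Figure D5:**
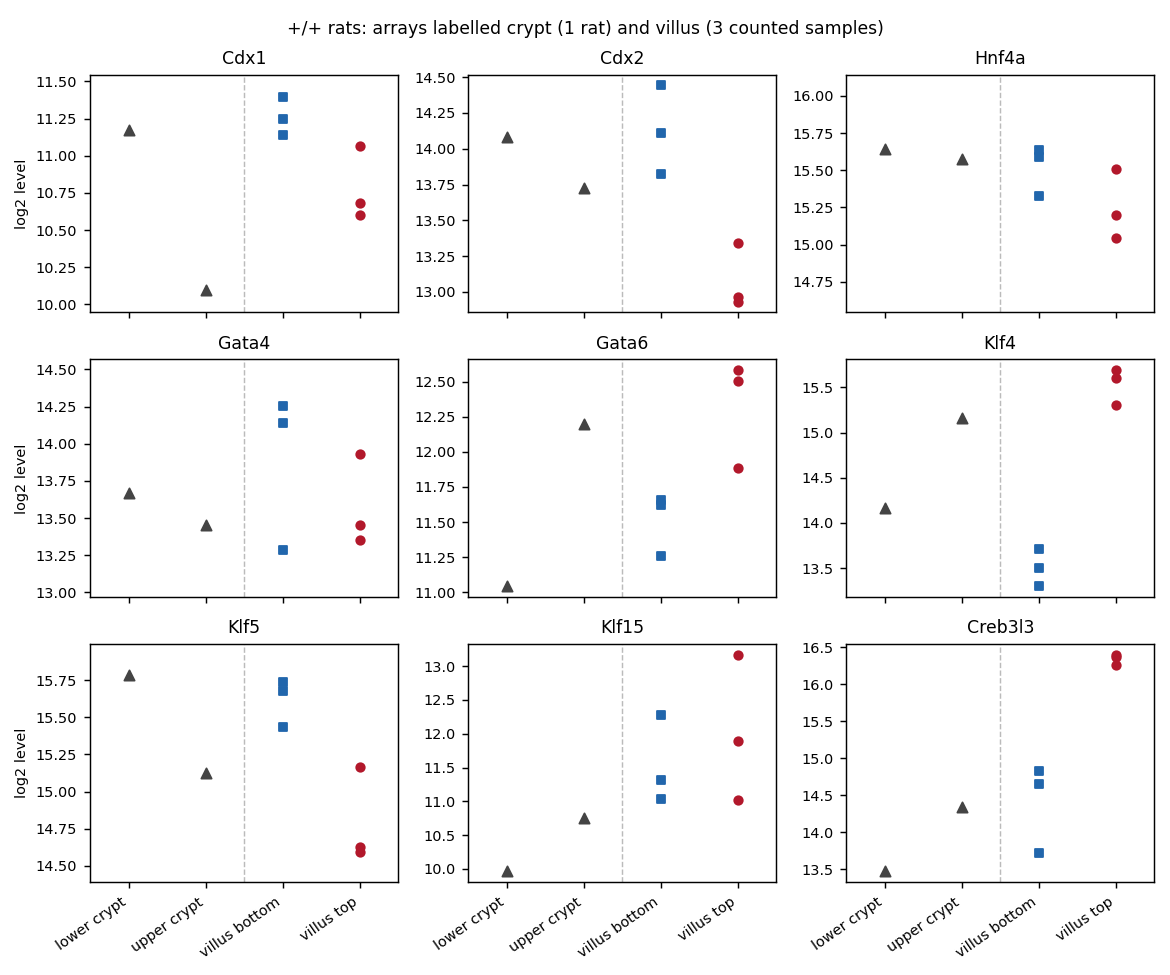
Log2 level of the brightest probe set of each gene on the vertical axis in +/+ rats, with triangles for the 1 rat of the arrays labelled lower and upper crypt, blue squares for villus bottom and red circles for villus top of the 3 control samples, and a dashed line between the 2 experiments. Klf4, Creb3l3 and Gata6 step up within each experiment, Klf5, Cdx2 and Cdx1 step down, and both crypt arrays of Klf15 (9.96 and 10.75) lie below its villus samples.

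Across the 40 counted villus arrays, some pairs of the 9 genes varied together and others did not. Klf4 and Gata6 had a Pearson r of 0.75, Cdx2 and Gata4 one of 0.69, and Klf4 ran opposite to Cdx2 (-0.81), Gata4 (-0.71) and Klf5 (-0.70). Cdx1 and Cdx2, both lower at the top, had 0.23, Creb3l3 and Gata4, of opposite gradients, had -0.09, and Klf15 lay between -0.34 and 0.24 with the other 8. Within a segment, over the 20 samples, Klf4 with Cdx2 had 0.07 at the top and 0.31 at the bottom. Cdx2 with Gata4 had -0.09 at the top and 0.70 at the bottom, and Cdx2 with Hnf4a 0.19 and 0.78. These are descriptions over arrays that share rats and segments.

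Genes whose levels were most like those of each factor over the 40 arrays, by Pearson r, were found for all 9. Those of Klf4 were Cldn4 (0.98), Ptprr (0.98) and Gch1 (0.97), with differences between top and bottom of 5.30, 4.15 and 3.28. Gata6 was followed by Csrnp1 (0.84), Slc20a1 (0.83) and Ube2j1 (0.83), and Creb3l3 by C1h11orf24, Rbp2 and Adtrp (0.88 each). Klf5 was most like Dnajc15 (0.90), Tsn (0.89) and Canx (0.89), Cdx2 like Bcl11b (0.91), Mrpl44 (0.90) and Krtcap2 (0.90), and Gata4 like Slc25a15 (0.87), Akr7a2 (0.84) and Dgkz (0.84). For Hnf4a they were Fdps (0.73), Hsd17b7 (0.71) and Fuom (0.69), and for Klf15 they were Slc6a20a (0.70), Qdpr (0.67) and Vipr1 (0.66). The values for Cdx1, 0.92 with Nfrkb and 0.91 with Tmem87a and Ppp2r2d, had a Spearman rho of 0.66 to 0.76, and repleted rat 3 was low at its top array.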

How the data were processed

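Rat duodenal RNA was hybridised to Affymetrix arrays, and the authors deposited 1 linear intensity per probe set for 46 arrays. The signal algorithm and the scaling are not given in the sources used here. The mean intensity, trimmed by 2%, was 2862 to 2867 on the arrays of control rat 3 and of b/b rat 3 with 3 days of iron. It was 2485 to 2492 on all other arrays, so the values as deposited carry an offset in those rats. Scaling between arrays hides a shift that most genes share.

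The 57 control probe sets were left out of 31099. A pseudocount of 43.5 (the 10th percentile) was added to the deposited intensity, log2 was taken, and the 44 villus arrays were quantile normalized, since array medians spanned 0.93 on that scale. The 2 crypt arrays were mapped to the same distribution. Probe sets above the 40th percentile of their array on 3 or more villus arrays were kept (26517). GEO's platform annotation gave 20826 probe sets 1 symbol, 436 several and 9780 none.

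Rats of a group with a robust SD under 0.2 between their arrays, over 5304 bright probe sets, were counted as 1 sample: control rats 1 and 2 and b/b rats 1 and 2, at 0.137 to 0.172, against 0.221 to 0.726 for the 28 other pairs. This left 20 of 22. Group contrasts used limma 3.58.1 (R 4.3.3) with an intensity trend, on the mean of each rat's top and bottom, in 1 fit of the 6 groups, and on each segment alone. Top minus bottom was tested on differences within rats. Tests were two-sided, called at a Benjamini-Hochberg adjusted p under 0.05 over all probe sets kept. P-values measure the spread between these rats. The fits were tested on simulated data. The tests of how a gradient differed between a pair of groups were added after the data were seen.

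Named are all probe sets of the 9 genes, the 3 genes most correlated with each and, from 8 lists of related genes, up to 3 called per direction with the largest change. Members, lists and markers were chosen with earlier results of these data known. Same-numbered rats of different groups did not vary together (every correlation over 0.1 in 0 of 15 pairs of groups), while the top array correlated best with its own bottom array in 17 of 22 rats. Alternatives were other pseudocounts, scalings and filters, no trend, all 22 rats, the replicate block, Xist as a covariate, and each sample left out. Xist was high (log2 level over 12) in 0 of 4 deficient, 1 of 3 repleted, 1 of 3 b/b, 1 of 4 and 3 of 3 b/b with 3 and 6 days of iron, and 1 of 3 control samples.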

Additional observations from a re-analysis of the deposited data

Results flagged for a closer look

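Dixon's test was run on 72 sets of 4 samples, 1 for each probe set, segment and group of 4 counted samples. These groups were the deficient rats and the b/b rats with 3 days of iron, and the other groups, with 3 counted samples, were not examined. Of the 72 sets, 5 held a sample far from the others, where chance gives about 1 in 20. Of these, 4 belonged to deficient rat 3. In the top of that rat, Gata6 1368827_at was low at 12.09, where the other deficient rats had 12.59 to 12.65. In the same array Klf5 1368363_at was high at 14.44, where the others had 13.75 to 13.86. In its bottom array Cdx2 was low at 13.88, where the others had 14.34 to 14.42. Also in its bottom array the dim Klf15 1381395_at was low at 6.44, where the others had 8.37 to 8.52. The fifth was Gata4 1370293_at at 9.54 on the top array of b/b rat 4 with 3 days of iron, where the others had 10.88 to 11.07.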

How the results depend on the processing

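The gradients held best: 14 of 18 probe sets passed between top and bottom, 12 with no replicate block for the rat, 13 on the values as deposited and 13 to 15 when a sample was left out. Hnf4a 1392969_at turned its direction, to 0.28 with median centring. The 2 calls between deficient and control rats became 1 with the larger or the smaller pseudocount, and 0 with median centring, without the filter, without the trend or with Xist as a covariate, whose fit called 1 between repleted and control rats. The cause of each was not tested. With all 22 rats counted separately, 3 passed between deficient and control, 2 between repleted and control, 1 between b/b and control and 1 among the 6 groups. With the replicate number as a block and all 22 rats, which share only a number, the counts were 4, 3, 1 and 5, and 1 between repleted and deficient. Leaving out 1 sample gave 0 to 3 calls between deficient and control, 0 to 2 between repleted and deficient, 0 to 3 between repleted and control, 0 to 1 between b/b and control and 0 to 1 among the 6 groups. The comparisons of iron-fed with unfed b/b rats and the test of whether gradients differ gave 0 under every alternative run.

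Over all probe sets, deficient and control rats differed at 107 (72 higher and 35 lower), at 7 with median centring (5 and 2), at 128 as deposited (55 and 73), at 0 without the trend and at 680 with 22 rats. On top arrays 259 passed (122 and 137), 145 with median centring (25 and 120), 299 as deposited (95 and 204), 16 without the trend and 103 with Xist as a covariate. Among the 18 probe sets 3 passed there, 2 with median centring, 2 as deposited, 1 without the trend, 1 with Xist and 0 to 4 with 1 sample left out. Repleted and control top arrays differed at 55 (13 and 42), at 421 with median centring (11 and 410), at 40 as deposited (2 and 38) and at 0 without the trend. Leaving out 1 sample moved the counts over all probe sets: deficient against control to 0 (without deficient rat 2) and to 473 (without repleted rat 3), its top arrays to 13 (without control rats 1 and 2) and 605 (without repleted rat 3), its bottom arrays to 0 and 328, repleted against deficient to 0 and 507 (without deficient rat 4), repleted against control to 0 and 290 and its top arrays to 1 and 403, b/b against control to 0 and 64 and its top arrays to 0 and 124, any difference to 0 and 124, and top against bottom to 13793 and 14577. The background shares move with them. Between top and bottom 14382 passed (6757 and 7625) and 14706 as deposited (5705 and 9001). The median of all probe sets moved to -0.14 as deposited (deficient against control) and to -0.20 with median centring (repleted against deficient). With 3 or 4 samples a group, a difference that did not pass is not shown to be absent. Dim probe sets, above all Klf15 1381395_at and deficient Klf15 1381396_s_at, lie close to the pseudocount.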
